A study of Mus musculus with 2 samples.

Results

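The genes described here are the chemokines and their receptors: small secreted or membrane-tethered proteins that guide the movement of cells, and the G protein-coupled receptors that read them. They were chosen by name, as every row of both count tables whose symbol follows the systematic nomenclature (Ccl, Cxcl, Cx3cl1 and Xcl1 for ligands; Ccr, Cxcr, Cx3cr1 and Xcr1 for conventional receptors; Ackr1 to Ackr4 and Ccrl2 for atypical ones). This gave 68 of 52636 rows, with 62 different symbols, since the near-identical genes Ccl19, Ccl21a, Ccl21b and Ccl27a have more than 1 identifier each. The name rule itself uses no measured value, but the family was chosen with earlier results of these data known. The study set mice lacking the microRNA miR-29a (miR-29a KO) beside wild-type mice (WT), all C57BL/6 and 8 weeks old, with retina as the labelled tissue. Each genotype had 1 RNA-seq library, made from the pooled retinas of 3 mice after removal of ribosomal RNA. The labels give no promoter, Cre line or treatment, and do not say how the knockout allele was made. With 1 library per group there is no replicate, so every difference below compares these 2 libraries and carries no p-value.

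Chemokines fall into families by the spacing of the first cysteines of the protein: CC, CXC, CX3C and XC. Some are induced by inflammatory signals through the transcription factor NF-kB or by interferons, and draw in monocytes, neutrophils or lymphocytes, while others are made constantly and hold cells in place or guide them in development. Atypical receptors bind chemokines without the usual G protein signal, and several of them remove their ligands. In the retina the family is best known from the neuron-derived ligand Cx3cl1 and its receptor Cx3cr1 on microglia, and from Ccl2, which glia and other resident cells release to recruit monocytes.

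The WT-labelled library held 26805902 counts and the KO-labelled library 24876925. Their content went against the labelled tissue. The photoreceptor markers Gnat1, Sag, Opn1sw and Opn1mw had 0 to 4 counts in each library, and Grm6, Pou4f2, Gad1 and Lhx1 of other retinal neurons had 0 in both, while 6 fibroblast markers (Col1a1, Col1a2, Dcn, Lum, Pdgfra, Thy1) summed to 6025 and 7005 CPM (the count as a share of the library total, scaled as is usual for this unit). The libraries also differed in Xist, the RNA of the inactive X chromosome, with 4288 and 0 counts, and in the Y-linked genes Ddx3y (67 and 376), Eif2s3y (50 and 280), Kdm5d (30 and 310) and Uty (17 and 126), so that the WT-labelled library held both kinds of RNA. Mir29a itself had 0 counts in both, and a hairpin that short is poorly captured by such libraries, so this value checks neither label. The libraries are therefore named below by their labels, WT-labelled and KO-labelled.

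Of the 68 rows, 22 had 50 or more counts in at least 1 library, the minimum for a ratio. Another 13 reached 10 to 49 counts in their higher library, 10 reached 1 to 9, and 23 had no count in either. With 0 counts seen, up to 3 remain possible, or 0.112 CPM in the WT-labelled library and 0.121 CPM in the KO-labelled library. The family summed to 4295 CPM in the WT-labelled library and 6276 CPM in the KO-labelled library. It was concentrated in few genes: Cxcl12, Cxcl5 and Cxcl1 held 86.4% of all ligand CPM in the WT-labelled library and 74.5% in the KO-labelled library. The make-up of the ligands differed between the libraries. Cxcl12 made up 50.4% of ligand CPM in the WT-labelled library and 25.1% in the KO-labelled library, and the CC ligands together 4.33% and 13.1%.

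**Figure D1:**
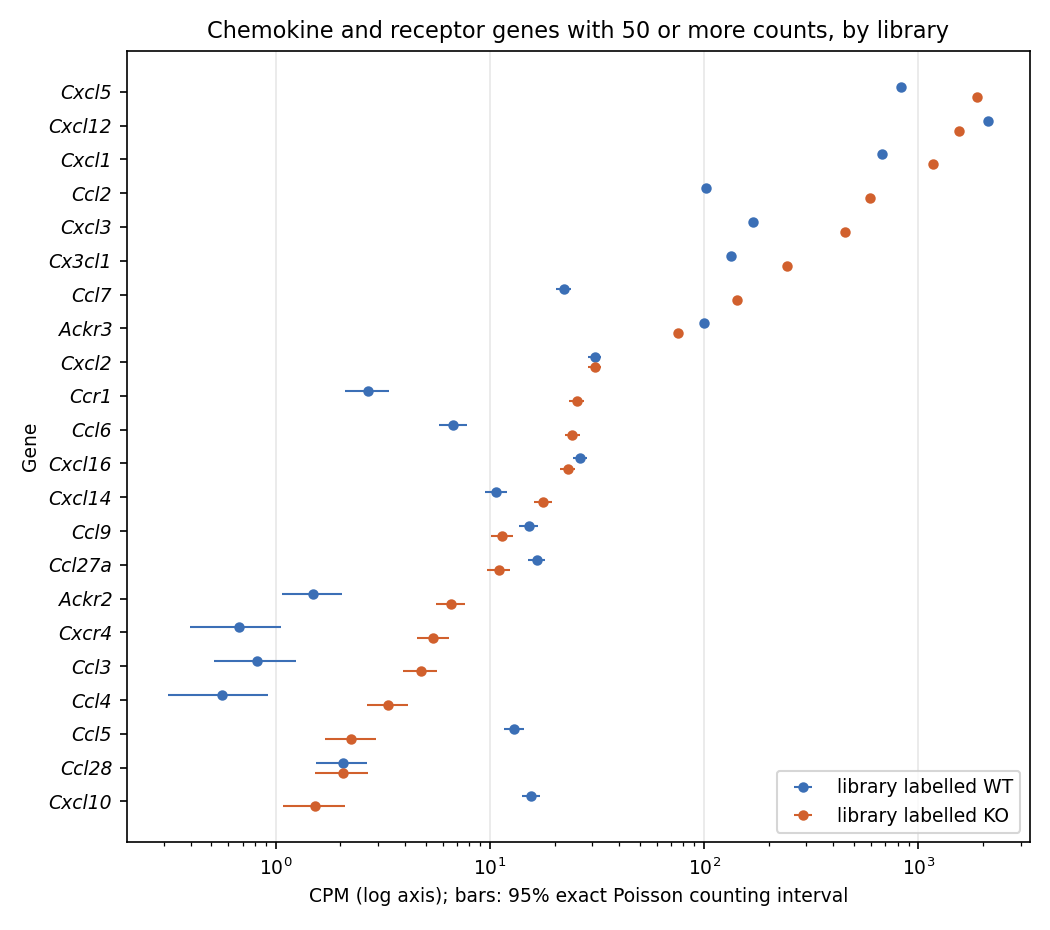
Level of each of the 22 chemokine and receptor genes with 50 or more counts, in CPM on a log axis, in the WT-labelled library (blue) and the KO-labelled library (orange); bars are 95% exact Poisson counting intervals. The blue and orange points lie farthest apart for Ccr1, Cxcr4, Cxcl10, Ccl7, Ccl2, Ccl3, Ccl4 and Ccl5, while those of Cxcl2 and Ccl28 lie over each other.

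Of the 22 genes, 10 were higher in the KO-labelled library by a log2 ratio of 1 or more (2-fold, after adding 0.5 to each CPM) and 2 were lower, with 10 in neither class. Over all 12382 genes past the same minimum, 4.47% were higher and 2.82% lower, and 7.29% passed in either direction. The 10 were the ligand genes Ccl2, Ccl3, Ccl4, Ccl6, Ccl7, Cxcl3 and Cxcl5 and the receptor genes Ccr1, Cxcr4 and Ackr2. Ccl5 and Cxcl10 were the 2 that were lower. The median log2 ratio of the 22 genes was 0.83, beside 0.06 for all genes past the minimum. Ccl3, Ccl4, Cxcr4 and Ackr2 passed the minimum only through the KO-labelled library, and Cxcl10 only through the WT-labelled library, so their counts had to differ. Among the 17 with 50 or more counts in each library, 6 were higher and 1 lower, with a median of 0.71. With 100 or more counts over both libraries instead, 9 of 21 were higher and 2 lower, beside 4.11% and 2.57% of all such genes. These shares describe a chosen family and are not a test of it.

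**Figure D2:**
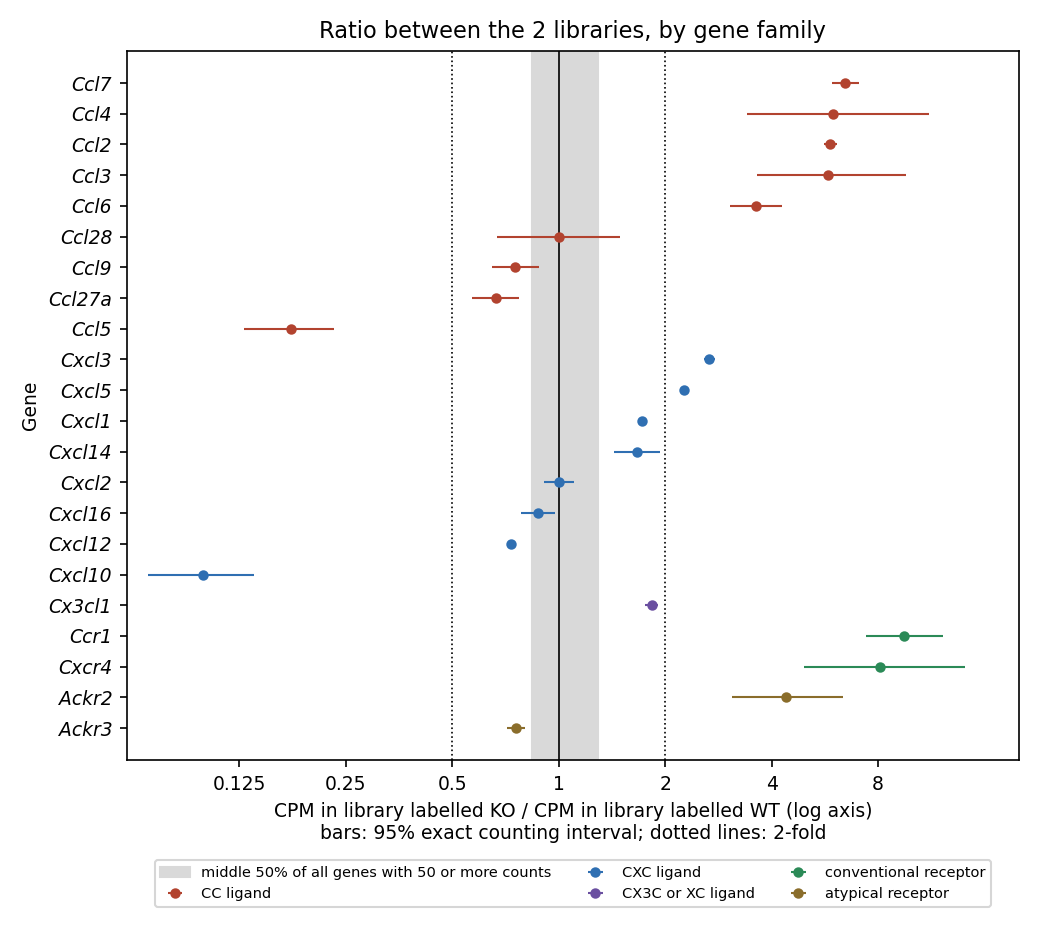
Ratio of CPM in the KO-labelled library to CPM in the WT-labelled library for the same 22 genes, on a log axis and grouped by family; bars are 95% exact counting intervals, dotted lines mark 2-fold and the grey band holds the middle 50% of all genes with 50 or more counts. The ratio is above 2 for 5 CC ligands, 2 CXC ligands and 3 receptors, and below 0.5 for Ccl5 and Cxcl10.

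Of 9 measured CC ligands 5 were higher and 1 lower in the KO-labelled library. Ccl2, the main attractant of monocytes (ENSMUSG00000035385, chromosome 11, positions 82035571 to 82037453, GRCm38), had 2730 counts (102 CPM) in the WT-labelled library and 14850 (597 CPM) in the KO-labelled library. It was 5.86-fold higher in the KO-labelled library, with a 95% exact counting interval of 5.63 to 6.11. Its neighbour Ccl7, which attracts monocytes through the same receptor and others (82045712 to 82047525), had 592 and 3552 counts and was 6.47-fold higher (5.92 to 7.06). The remaining monocyte-attracting genes of this group stayed under the minimum, Ccl8 at 15 and 38 counts and Ccl12 at 6 and 19. In the authors' FPKM, which takes account of gene length, Ccl2 stood at 94.7 in the WT-labelled library and 534 in the KO-labelled library, and Ccl7 at 29.2 and 181. By this measure Ccl7 held rank 8 of the 22 genes in the WT-labelled library and rank 5 in the KO-labelled library, where its interval (175 to 187) did not reach that of Cxcl12 at rank 4 (190.3 to 194).

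The other inflammatory CC ligands went both ways. Ccl6, a mouse ligand of Ccr1 made mainly by myeloid cells, had 180 and 602 counts and was 3.60-fold higher in the KO-labelled library (3.05 to 4.28). Ccl3 and Ccl4, the macrophage inflammatory proteins, had few counts: Ccl3 had 22 and 118, a ratio of 5.78 (3.64 to 9.57). Ccl4 had 15 and 83, a ratio of 5.96 (3.41 to 11.1). Their wide intervals follow from these counts. Ccl9, which lies next to Ccl6 and also acts on Ccr1, had 406 and 284 counts, with a log2 ratio of -0.39, so that it did not share the direction of Ccl6. Ccl5, a ligand of Ccr1 and a gene known to respond to interferon and NF-kB, had 346 counts in the WT-labelled library and 56 in the KO-labelled library, and was 5.73-fold lower in the latter (4.31 to 7.75).

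Among CC ligands with roles in normal tissue, none passed 2-fold. Ccl27a, which draws T cells to skin, had 443 and 273 counts at its expressed identifier (ENSMUSG00000073888) and a log2 ratio of -0.57. Its exons overlap those of Il11ra1, on the other strand, which had 12665 and 8693 counts; strand was not marked, so reads of these genes cannot be told apart and the value is uncertain. Ccl28, an epithelial chemokine, had 55 and 51 counts and a log2 ratio that rounds to 0.00. Ccl25 (37 and 43 counts, overlapped by exons of Elavl1 with 1130 and 1374) and Ccl17 (11 and 21) stayed under the minimum, as did Ccl20, the ligand of Ccr6 (2 and 18). Both identifiers of Ccl19, all those of Ccl21a, Ccl21b and Ccl21c, and Ccl1, Ccl22 and Ccl26 had 0 counts in both libraries. For near-identical copies such as the Ccl21 genes a count of 0 can also come from reads that match several places, whose treatment is not stated in the labels.

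The CXC ligands that carry a glutamate-leucine-arginine motif and attract neutrophils through Cxcr2 were led by Cxcl5 and Cxcl1, which had the highest FPKM of the family in both libraries. Cxcl5 had 22251 counts (830.1 CPM) in the WT-labelled library and 46687 (1877 CPM) in the KO-labelled library, 2.26-fold higher (2.23 to 2.30). Cxcl3 had 4547 and 11242 counts and was 2.66-fold higher (2.57 to 2.76). Cxcl1, also known as KC, had 18147 and 28962 counts, with a ratio of 1.72 (1.69 to 1.75), which is under the 2-fold line. Cxcl2 differed from its relatives: at 827 and 768 counts its log2 ratio rounded to 0.00, and the ratio had an interval of 0.906 to 1.11 that does not reach the ratio of any of the other three. Cxcl15 had 0 counts in both. After subtracting the median of genes of similar GC content and length, the log2 ratio of Cxcl5 went from 1.18 to 0.88, under the 2-fold line, and that of Cxcl3 from 1.41 to 1.04. In FPKM, Cxcl5 held rank 1 in both libraries (471 and 1025) and Cxcl1 rank 2 (382 and 632).

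The promoters of Cxcl1, Cxcl2 and Cxcl3 are shown because these neighbouring genes share a known NF-kB motif but differed in ratio, and that of Cxcl10 because it had the lowest ratio of the family. The sequences are from RefSeq (GRCm38.p6), cover the 250 bases before the annotated start site and are written 5′ to 3′ on the gene's strand. Capitals mark matches to the NF-kB consensus, to the interferon response element (GAAA, any 2 bases, GAAA) and to the AP-1 motif TGANTCA, searched on both strands. The windows are chr5:90890995-90891244 (+) for Cxcl1, chr5:90903649-90903898 (+) for Cxcl2, chr5:90785851-90786100 (+) for Cxcl3 and chr5:92348890-92349139 (-) for Cxcl10.
Cxcl1: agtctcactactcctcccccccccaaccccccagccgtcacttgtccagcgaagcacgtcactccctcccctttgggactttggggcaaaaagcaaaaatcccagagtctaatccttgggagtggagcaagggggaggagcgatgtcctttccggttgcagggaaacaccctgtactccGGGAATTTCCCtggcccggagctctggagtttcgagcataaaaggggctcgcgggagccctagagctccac
Cxcl2: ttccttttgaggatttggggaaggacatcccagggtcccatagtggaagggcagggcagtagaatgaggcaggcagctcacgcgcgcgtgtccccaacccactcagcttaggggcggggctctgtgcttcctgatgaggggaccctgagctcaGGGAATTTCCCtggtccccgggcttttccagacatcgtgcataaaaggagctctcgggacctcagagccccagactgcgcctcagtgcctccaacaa
Cxcl3: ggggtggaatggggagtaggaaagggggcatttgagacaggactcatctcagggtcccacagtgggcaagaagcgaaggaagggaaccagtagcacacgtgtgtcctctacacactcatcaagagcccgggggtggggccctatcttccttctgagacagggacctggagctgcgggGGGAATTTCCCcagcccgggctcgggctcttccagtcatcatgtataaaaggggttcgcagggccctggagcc
Cxcl10: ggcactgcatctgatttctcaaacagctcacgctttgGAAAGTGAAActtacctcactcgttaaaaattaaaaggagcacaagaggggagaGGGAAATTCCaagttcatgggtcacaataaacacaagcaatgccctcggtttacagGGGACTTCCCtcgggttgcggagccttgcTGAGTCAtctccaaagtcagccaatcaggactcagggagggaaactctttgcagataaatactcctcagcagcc
The stretch GGGAATTTCC begins 71 bases before the start of Cxcl1, 97 before that of Cxcl2 and 73 before that of Cxcl3. It reads as a match on each strand, shifted by 1 base, so that the matches overlap. Of all 32851 promoter windows of this length, 28 held it (0.0852%), and of 56 windows of the family, 4 did, the fourth being Ccr3 (0 and 11 counts). The looser NF-kB consensus was found in 1281 of all windows (3.9%) and in 10 of the family's 56 (17.9%). The motifs were chosen after the family's sequences and ratios had been seen. For NF-kB 4 forms were tried: GGG with any 2 bases and TTTCC was searched first (1.41% of all windows, 10.7% of the family's) and, with the narrower form that has GGGA, any base and TTTCC (0.356% and 7.14%), was set aside for the consensus because it missed a match in Cxcl10, and GGGAATTTCC was picked because Cxcl1, Cxcl2 and Cxcl3 share it. The rarity of GGGAATTTCC among all windows and the family's share of consensus matches are therefore no evidence about the family. The shared stretch went with log2 ratios of 0.78, 0.00 and 1.41, so genes that hold it did not have one ratio. In Cxcl10 an interferon response element begins 213 bases before the start, NF-kB matches 159 and 103 bases before it, and an AP-1 match 74 bases before it. The interferon response element occurred in 2.98% of all windows, and among family genes past the minimum also in Cxcl14, and TGANTCA in 6.75% of all windows. These matches describe letters in a window and were not tested for binding. Ccl2, Ccl4, Ccl5, Ccl7, Cxcl5 and Cxcl16 had no entry.

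Cxcl10, which interferons induce and which attracts activated T cells through Cxcr3, had 415 counts (15.5 CPM) in the WT-labelled library and 38 (1.53 CPM) in the KO-labelled library. It was 10.1-fold lower in the KO-labelled library (7.26 to 14.5). Its exons overlap those of Art3 on the other strand, which had 52 and 74 counts, more than Cxcl10 in the KO-labelled library. Strand was not marked, so reads of the overlap cannot be told apart. The size of the Cxcl10 ratio is therefore uncertain. The related Cxcl9 had 14 and 8 counts and Cxcl11 had 0 in both. Of the 11 genes of interferon signalling listed with this family, 7 were lower by 2-fold and 0 higher. The 7 were Stat2, Irf7, Isg15, Ifit1, Ifit3, Rsad2 and Usp18. Over all genes past the minimum, 2.82% were lower and 4.47% higher. The median log2 ratio of the list was -1.22, and each of the 11 lay below 0. This list was chosen with that direction already known. In the KO-labelled library, lower counts of Cxcl10 and Ccl5 stood beside higher counts of Ccl2, Ccl7, Cxcl3 and Cxcl5.

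None of the remaining CXC, CX3C and XC ligands passed 2-fold before the correction for GC content and length. Cxcl12, which holds stem cells and leukocytes in place and is typical of stromal cells, was the most counted gene of the family in the WT-labelled library, with 56581 counts (2111 CPM) against 38415 (1544 CPM) in the KO-labelled library. Its log2 ratio was -0.45. Cxcl14, made by epithelial and stromal cells, had 285 and 440 counts (log2 ratio 0.71), and Cxcl16, a membrane-bound ligand of Cxcr6, had 708 and 573 (-0.19), with exons that overlap those of Zmynd15 (27 and 17). Cx3cl1, the membrane-tethered ligand fractalkine, had 3561 and 6056 counts (133 and 243 CPM). Its ratio was 1.83 (1.76 to 1.91), under 2-fold, but its log2 ratio of 0.87 became 1.06 after the correction for GC content and length. Cxcl13 and Cxcl17, and Xcl1 of the XC family, had 0 counts in both libraries.

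Conventional receptor genes had few counts. The 18 conventional receptor genes summed to 148 counts in the WT-labelled library and 850 in the KO-labelled library, while the 45 ligand rows summed to 112197 and 153205. Only Ccr1 and Cxcr4 passed the minimum. Ccr1, the receptor of Ccl3, Ccl5, Ccl6, Ccl7 and Ccl9 on myeloid cells (chromosome 9, 123962124 to 123968692), had 72 and 632 counts and was 9.46-fold higher in the KO-labelled library (7.40 to 12.2). Cxcr4, the receptor of Cxcl12, had 18 and 135 counts and was 8.08-fold higher (4.92 to 14.05). These were the highest ratios of the 22 genes before the added 0.5. Ccr1 alone made up most of the conventional receptor counts in the KO-labelled library.

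Several abundant ligands stood beside a receptor with almost no counts. Ccr2, the receptor of Ccl2 and Ccl7, had 1 and 0 counts. Cxcr2, which reads Cxcl1, Cxcl2, Cxcl3 and Cxcl5, had 0 and 1, and Cxcr1 had 0 in both. Cx3cr1, the receptor of Cx3cl1 and a defining gene of microglia, had 0 counts in the WT-labelled library and 5 in the KO-labelled library. Cxcr6 had 0 and 8 counts, Cxcr3 0 and 13 and Ccr3 0 and 11. Ccr7, which guides dendritic cells and lymphocytes to lymph nodes, had 18 and 5, Ccr10, the receptor of Ccl27a and Ccl28, 20 and 11, and Xcr1, typical of some dendritic cells, 12 and 22. Cxcr5 had 2 and 0 counts, and Ccr4, Ccr6, Ccr8 and Ccr9 had 0 in both. No ratio was taken at these counts.

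**Figure D3:**
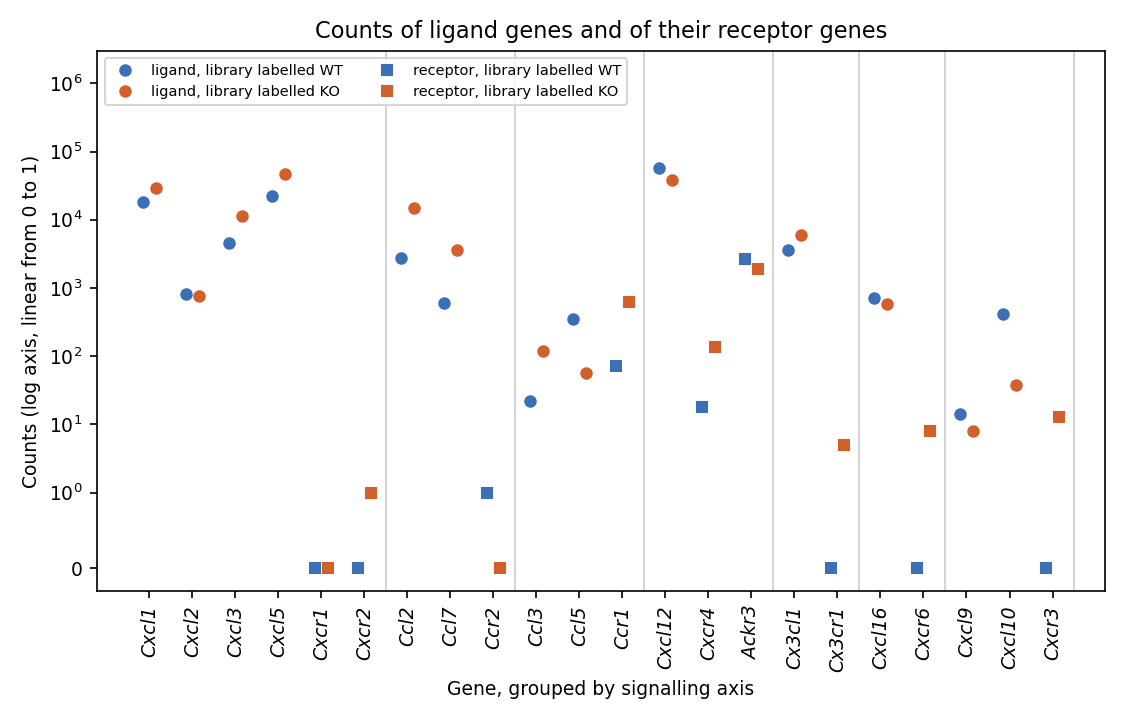
Counts of ligand genes (circles) and of receptor genes that read them (squares), grouped by signalling axis, in the WT-labelled library (blue) and the KO-labelled library (orange); the vertical axis is logarithmic above 1 and linear from 0 to 1. Cxcr1, Cxcr2, Ccr2, Cx3cr1, Cxcr6 and Cxcr3 lie at 0 to 13 counts, below all of the ligands drawn in their axes except Cxcl9, which lies at 14 and 8.

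Atypical receptors were led by Ackr3, which takes up Cxcl12. It had 2668 and 1875 counts (log2 ratio -0.40) and was the most counted receptor of the family in both libraries. Cxcl12 (log2 ratio -0.45) lay on the same side, and Cxcr4 on the other. Ackr2, a decoy for inflammatory CC chemokines such as Ccl2, Ccl3 and Ccl5, had 40 and 163 counts and was 4.39-fold higher in the KO-labelled library (3.09 to 6.37). Ccrl2, which presents the attractant chemerin, had 48 and 28 counts, Ackr4, a decoy for Ccl19, Ccl21 and Ccl25, 26 and 16, and Ackr1, the red cell and venule receptor, 0 and 1. Exons of Ackr4 overlap those of Acad11, on the other strand, which had 361 and 444 counts, so its counts are uncertain.

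Markers of macrophages moved with the higher genes. Of 15 such genes (Csf1r, Cd68, Aif1, Adgre1, Tyrobp, Fcer1g, Ptprc, Itgam, Laptm5, Ctss, C1qa, C1qb, C1qc, Mrc1, Lyz2), 14 passed the minimum and all 14 were higher in the KO-labelled library, with log2 ratios of 1.25 to 2.40 and a median of 2.01. Over all genes past the minimum, 4.47% were higher. The summed level of the markers was 414 and 1593 CPM. Lyz2 alone gave 5827 and 21052 of the summed counts, and Ptprc (16 and 103) and Itgam (8 and 81) passed the minimum only through the KO-labelled library. Before the added 0.5, ratios of the markers with 50 or more counts in each library ran from 2.45 (Csf1r) to 5.70 (Fcer1g). Those of Ackr2 (4.39), Ccl6 (3.60) and Cxcl3 (2.66) lay inside this range and that of Cxcl5 (2.26) below it. Those of Ccl2 (5.86), Ccl3 (5.78), Ccl4 (5.96), Ccl7 (6.47), Ccr1 (9.46) and Cxcr4 (8.08) lay above it. The ratios of Ptprc (6.94) and Itgam (10.9) were also above it. However, the counting interval of Fcer1g (4.75 to 6.88) held the ratios of Ccl2, Ccl3, Ccl4 and Ccl7. Ackr2, Ccl3, Ccl4 and Cxcr4 passed the minimum only through the KO-labelled library, so their counts had to differ, unlike those of the markers that set the range. The part of macrophage content in these results was not tested, and in pooled tissue more cells of a type and more RNA per cell cannot be told apart. Of 4 genes listed for microglia, only Tmem119 passed the minimum, with 3245 and 2063 counts. P2ry12 had 6 and 9, Sall1 10 and 23 and Siglech 0 and 1. The T and B cell genes Cd3e, Cd3g, Cd8a, Trac, Cd79b and Ms4a1 had 0 counts in both libraries, but Lck had 27 and 10, Cd79a 8 and 10 and Cd3d 0 and 2. Of the neutrophil genes S100a9, Mpo and Elane had 0 in both, Ly6g had 3 and 0, Retnlg 1 and 0, and S100a8 98 and 248. Of 6 fibroblast markers 0 passed 2-fold, beside 7.29% of all genes past the minimum. Their log2 ratios ran from -0.29 to 0.93, close under the line at the upper end, with a median of 0.44. The endothelial markers were mixed. With 50 or more counts in each library, Cdh5 had 175 and 576 and Tek 176 and 167, while Pecam1 (38 and 104) and Kdr (8 and 58) passed the minimum only through the KO-labelled library. Cd4, which T cells and some macrophages express, had 53 and 221 counts.

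Many of these genes lie in clusters of related copies, and the direction was shared only within parts of them. On chromosome 11 a cluster of 6 genes spans 270.1 kb from Ccl2 to Ccl1 (82035571 to 82305690), of which Ccl2 and Ccl7 at its start were the 2 past the minimum and both higher. Farther along, the cluster from Ccl5 to Ccl4 (83525778 to 83664683) held both directions: Ccl5 lower at one end, Ccl9 in neither class, and Ccl6, Ccl3 and Ccl4 higher. Wfdc17, a gene of activated macrophages just past Ccl4, had 875 and 2566 counts, and Rasl10b on the Ccl5 side 544 and 135. Of 17 neighbours of this cluster within 500 kb, 1 was higher and 1 lower, beside 4.47% and 2.82% of all genes past the minimum.

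On chromosome 5 the cluster from Cxcl5 to Cxcl2 (90759360 to 90905938) held Cxcl5 and Cxcl3, which were higher, and Cxcl1 and Cxcl2, which passed no threshold. Of 7 neighbours past the minimum within 500 kb, 4 were higher, beside 4.47% of all genes past the minimum. The 4 were Pf4 and Ppbp, chemokines of the same cluster with other names, and 2 epidermal growth factor family genes. The latter were Ereg (772 and 3933 counts) and Areg (154 and 980). Ppbp (35 and 129) passed the minimum only through the KO-labelled library, so its counts had to differ. The Cxcl9 to Cxcl11 cluster, farther along chromosome 5 (92321347 to 92365485), held Cxcl10 as its 1 gene past the minimum. In the receptor cluster on chromosome 9, Ccr1 was higher. Of its 10 neighbours within 500 kb, 0 passed 2-fold in either direction, beside 7.29% of all genes past the minimum. No test of position was made.

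**Figure D4:**
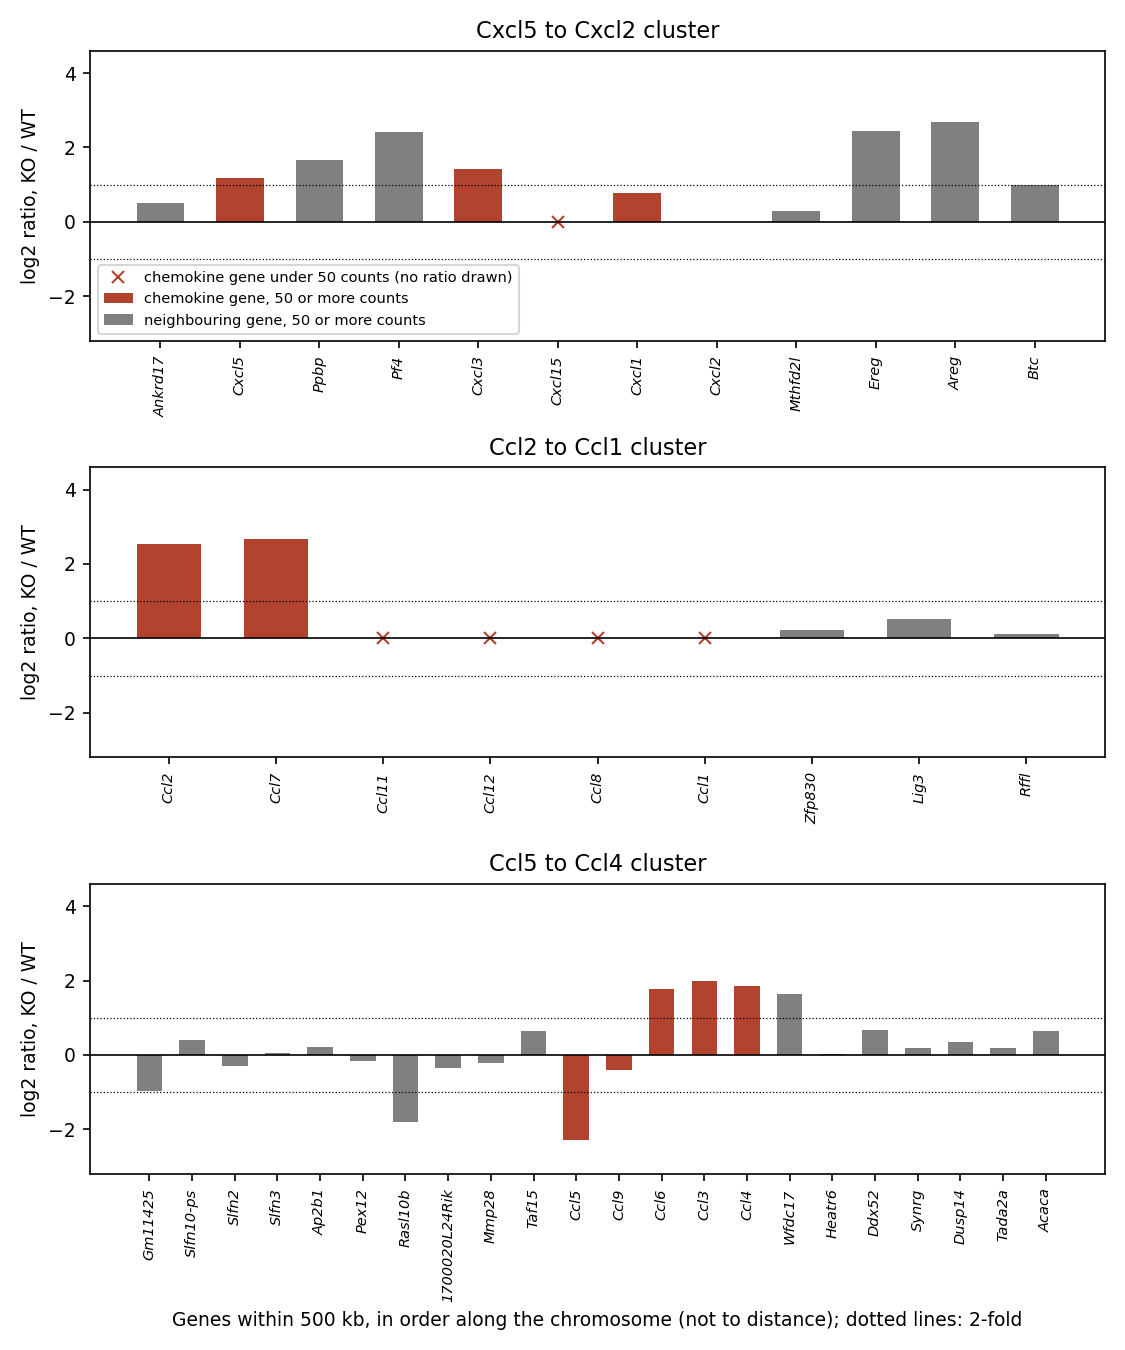
Log2 ratio of the KO-labelled library over the WT-labelled library for genes within 500 kb of 3 chemokine clusters, in order along the chromosome; red bars are chemokine genes and grey bars neighbouring genes with 50 or more counts, and a red cross marks a chemokine gene under that minimum. Bars of Cxcl5, Cxcl3, Ccl2, Ccl7, Ccl6, Ccl3 and Ccl4 stand above the dotted 2-fold line and that of Ccl5 below it, while Cxcl1, Cxcl2 and Ccl9 stay between the lines.

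Since miR-29a is the gene removed in the knockout, the family was searched for its sites. A microRNA represses messages that pair with its seed, bases 2 to 8, here in capitals as RefSeq gives the mature strand (GRCm38.p6, chr6:31062673-31062694, -).
miR-29a-3p: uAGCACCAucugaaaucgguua
The matching heptamer TGGTGCT was looked for in 3' UTRs, taking for each gene the longest one among its protein-coding transcripts (GENCODE M21). Of the 22 genes past the minimum 1 held it, Ccl28, against 16.1% of 11585 protein-coding genes past the minimum. Ccl28 has 2 copies in a UTR of 3293 bases, and its log2 ratio rounds to 0.00. None of the 10 higher genes, Ccr1 and Ccl2 among them, held the heptamer. Under the minimum it occurred in Ccr2, Ccr3, Ccr9 and Cxcl9, among others. Short 3' UTRs, such as 275 bases in Ccl2 and 199 in Ccl5, leave fewer places for it. The sites of Ccl28, with the heptamer in capitals, were these.
Ccl28, position 1271: caagtaagTGGTGCTtagaggtt
Ccl28, position 2802: tcatcctgTGGTGCTcctgggaa

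Other genes of chemokine signalling were taken from lists drawn up with earlier results of these data known. Over all genes past the minimum, 4.47% were higher and 2.82% lower. Of 31 measured genes that carry the receptor signal inside the cell, 7 were higher by 2-fold and 0 lower (median log2 ratio 0.53). Among the 7 were genes typical of blood-derived cells: the kinase subunit gene Pik3cg (19 and 92 counts), the Rac activators Dock2 (39 and 192) and Vav1 (23 and 155), Rac2 (101 and 264), the actin regulator gene Was (32 and 77) and the Src family kinase gene Lyn (124 and 347). Pik3cg, Dock2, Vav1 and Was passed the minimum only through the KO-labelled library. Widely expressed parts of the same route passed no threshold, such as the G protein gene Gnai2 (19300 and 16556 counts) and Gnb2 (16397 and 12441). Of 18 measured genes of NF-kB and its feedback, 5 were higher and 1 lower, with a median of 0.31. Those higher were the prostaglandin synthase gene Ptgs2 (14452 and 41407 counts), Il6 (3047 and 8025), Il1a (32 and 83, past the minimum only through the KO-labelled library), Rel (73 and 170) and the inhibitor gene Tnfaip3 (124 and 243, a ratio of 2.11, close to the line). The adhesion gene Icam1 was lower (4976 and 1211 counts), and Nfkbia, the gene of the main inhibitor, had a log2 ratio of 0.38. Of 10 measured genes that cut, shed or present chemokines, 0 passed 2-fold in either direction, beside 7.29% of all genes past the minimum. Among the 10 were Mmp2, Adam10, Adam17 and the heparan sulfate genes Sdc4 and Ext1.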

How the data were processed

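Read counts per gene were deposited by the authors as whole numbers, per the file headers, and entered the calculations unchanged. FPKM values, which the authors also give per the file headers, served for levels per length and as an alternative. HISAT2 and mm10 (GRCm38) are named in the submitters' processing notes; which counter, annotation release, strand setting and FPKM scaling were applied is not given in the sources used here. A kit that does not mark strand is named in the labels' protocols. Totals were 26805902 counts (WT) and 24876925 (KO).

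Counts were divided by the total (CPM), and 0.5 CPM was added before the log2 ratio. Genes needed 50 counts in the higher library, and a log2 ratio of 1 set the call. For 4 genes the count to FPKM ratio differed by more than 1% between the tables; these were left out. Ratios without addition carry 95% exact (Clopper-Pearson) intervals and levels exact Poisson ones; both, and the floor of 3 counts, cover counting error only, as PCR copies are not separate molecules. Positions, lengths, GC content and 3' UTRs came from GENCODE M21, in which 52403 of 52636 identifiers were found; promoters and miR-29a came from RefSeq. Of the 22 measured family genes, 16 matched a promoter by symbol.

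Named were all family genes with 50 or more counts, with counts those at 10 to 49, and, of the listed genes, those past 2-fold and the most counted; other genes and those under 10 counts were named after their values were seen. Some family and list genes are not reported here by name, though the counts of genes include them. Members and lists were chosen with earlier results of these data known. The promoter motifs, the ligand and receptor pairs drawn together, the cluster limits and the 500 kb window were chosen after the values were seen; the search for miR-29a sites was narrowed to protein-coding transcripts after a first count over all transcript types, which gave the same counts for the family. The calculation was tested on simulated counts. Alternatives were pseudocounts of 0.1 and 2 CPM, library totals that leave out rRNA, mitochondrial genes and the top 20 genes by count, size factors by median of ratios or by TMM in edgeR, minimums of 200, 10 and 1 counts, FPKM, a correction for GC content and length in 10 bins each, and thresholds of 1.5-fold and 4-fold; a minimum of 100 counts over both libraries was added after seeing the data. The tools were edgeR 4.0.16 in R 4.3.3, and scipy 1.17.1, pandas 2.3.3, numpy 2.4.6 and matplotlib 3.10.9 in Python 3.11.15.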

Additional observations from a re-analysis of the deposited data

How the results depend on the processing

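The number of chemokine and receptor genes higher in the KO-labelled library was 10, and fell to 6 of 17 with a minimum of 200 counts and to 4 at a threshold of 4-fold, as fewer genes can pass either; it was 9 to 13 under the others. The number lower was 2 under every alternative run. The median log2 ratio (0.83) ran from 0.38 with no minimum to 0.87 with the correction for GC content and length. All 12 called genes kept their sign under every alternative that gave them a value, and all but Cxcl5 stayed past 2-fold. Cx3cl1 crossed 2-fold only with that correction, and Cxcl2 (0.00) took either sign. Across all genes the log2 ratio correlated with transcript GC content (Spearman's rank correlation -0.44, genes not being independent); the median GC content was 46.2% in the 22 genes and 49.9% in all. No paired analysis was possible because each group has 1 library. With 1 library per group, spread between animals is unknown, and pools differing in sex chromosome RNA cannot be told apart from genotype. Receptor genes under 10 counts are limited by depth.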

Other observations

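Chemoattractant genes that do not carry a systematic chemokine name also differed between the libraries, in both directions. Pf4, the platelet and macrophage chemokine also called Cxcl4, had 152 counts in the WT-labelled library and 799 in the KO-labelled library, a ratio of 5.66, with a 95% exact counting interval of 4.76 to 6.78. Ppbp, or Cxcl7, had 35 and 129 counts (ratio 3.97). Chemerin, an attractant of macrophages and dendritic cells encoded by Rarres2, was lower, with 1701 and 379 counts (ratio 0.240), while the gene of its receptor, Cmklr1, had 24 and 60. Mif, a cytokine that can bind Cxcr2 and Cxcr4, had 11113 and 5699 counts (log2 ratio -0.85) and Cklf 99 and 142 (0.57). Of 9 measured genes of this list 3 were higher by 2-fold and 1 lower, beside 4.47% and 2.82% of all genes past the minimum. Ppbp and Cmklr1, however, passed the minimum of 50 counts only through the KO-labelled library and so had to differ.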
